A study of Mus musculus with 9 samples.

Results

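The retinoid genes examined here were the 3 retinoic acid receptors (Rara, Rarb and Rarg), the 3 retinoid X receptors (Rxra, Rxrb and Rxrg), the retinol and retinoic acid binding proteins Rbp4 and Crabp1, and the synthesis enzyme Aldh1a1. They were taken by symbol, from probe sets that the platform annotation assigns to exactly 1 gene. All 9 genes were measured, through 12 of 45037 probe sets, among 18193 genes in all. Rarg had 2 probe sets, Rxra had 3, and each of the other 7 genes had 1. For a gene with several probe sets, the brightest one over all arrays gave the main value, and the others are given beside it.

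RNA was taken from the striatum of 9 female mice of a C57Bl/6 / CBA background and hybridised to Affymetrix whole-genome arrays, 1 array per mouse. The controls were 4 wild-type mice (46, 47, 49 and 66) aged 85 days. The other 5 mice (R62_86, R62_95, R62_105, R62_107 and R62_109) carried the R6/2 transgene, a fragment of human huntingtin with an expanded CAG repeat under the human promoter, which is expressed widely and not only in the striatum. R62_86 was also 85 days old, and the other 4 R6/2 mice were 83 days old. The design asks how striatal expression differs between the genotypes. Values are log2 expression, so a difference of 1 is a change by a factor of 2, and each difference below is R6/2 minus wild-type.

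Retinol, or vitamin A, is carried in blood by retinol binding protein and is oxidised inside cells, by way of retinaldehyde, to retinoic acid. Retinoic acid binds the RAR receptors, which sit on DNA as pairs with an RXR receptor and switch their target genes on when the ligand is bound. In the adult striatum, RARβ and RXRγ are the receptors known to be abundant in spiny projection neurons, the main neurons of that tissue, where the dopamine D2 receptor gene is among the genes known to respond to them.

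Of the 9 genes, 5 fell in R6/2 mice (Rarb, Rxrg, Rbp4, Rarg and Aldh1a1) and none rose, at a limma adjusted p under 0.05. Over all genes, 16.9% passed the same test in either direction, 7.57% passed as lower and 9.28% as higher. Rxrg, Rbp4 and Rarb fell by at least 1 on the log2 scale, which 0.824% of all genes did. The values of the genotypes did not overlap for the same 5 genes, against 17.3% of all genes, or 8.09% with R6/2 lower. The median difference of the 9 genes was -0.41, beside -0.02 for all genes. When every probe set was tested on its own, 5 of the 12 passed, against 10.4% of all probe sets in either direction and 4.57% as lower, and these were the single probe sets of Rarb, Rxrg and Rbp4 and both probe sets of Rarg.

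**Figure D1:**
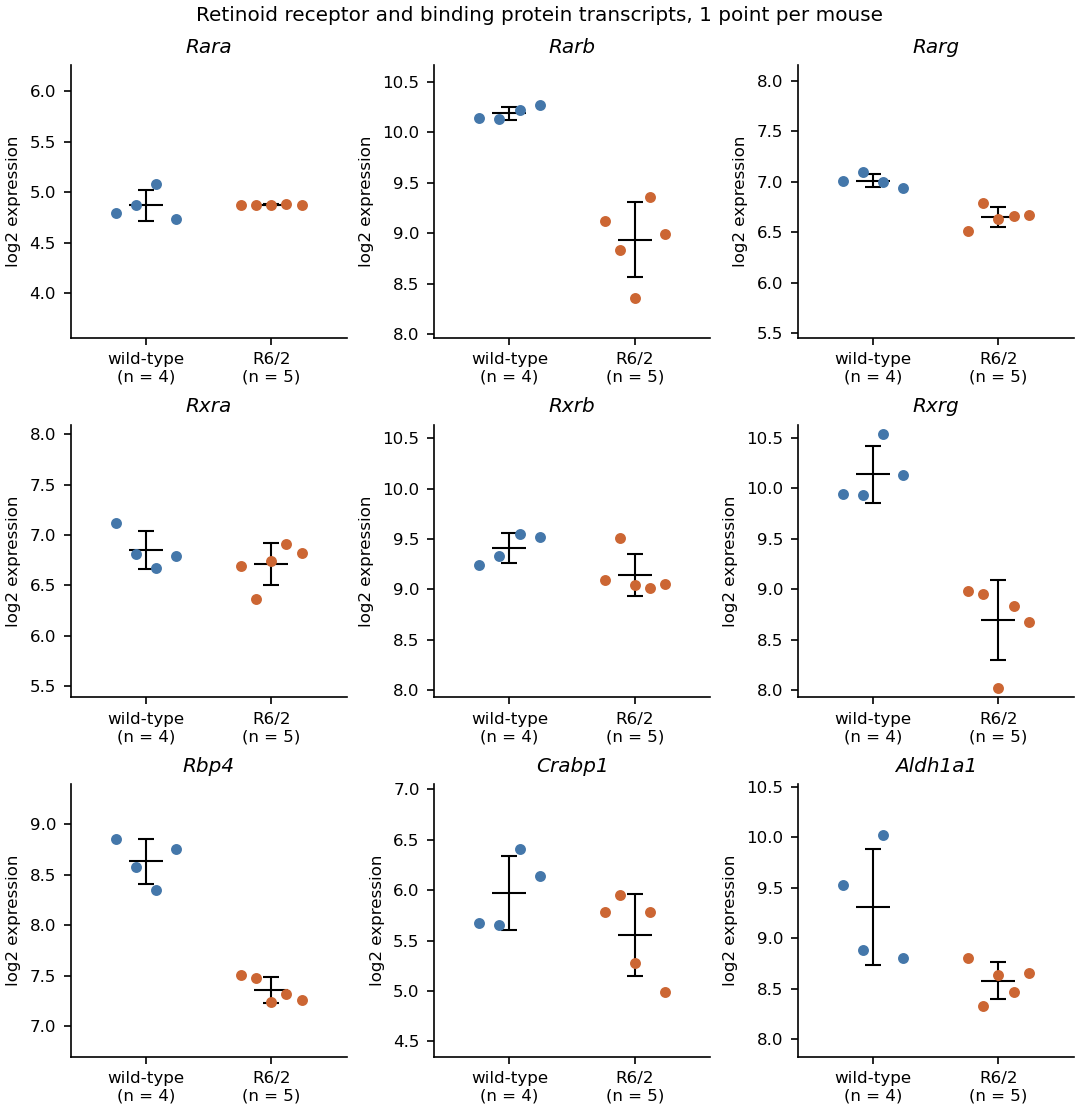
Log2 expression of the 9 retinoid genes in each mouse, 1 point per mouse, for wild-type (n = 4) and R6/2 (n = 5), with the mean and SD of each group as bar and error bar. Every R6/2 value of Rarb, Rxrg, Rbp4, Rarg and Aldh1a1 lies below every wild-type value, whereas the groups overlap for Rara, Rxra, Rxrb and Crabp1.

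Rarb encodes RARβ, a receptor whose own gene is known to be switched on by retinoic acid through a response element in its promoter. In wild-type mice 46, 47, 49 and 66 it measured 10.14, 10.13, 10.22 and 10.27, and in R62_86, R62_95, R62_105, R62_107 and R62_109 it measured 9.12, 8.84, 8.36, 9.36 and 8.995. The wild-type values lay close together, all R6/2 values were lower, and R62_105 was the lowest. Rarb fell by 1.26 ± 0.16 (SE) on the log2 scale, to 41.9% of the wild-type level (limma adjusted p = 0.00072). The group means were 10.19 ± 0.06 (SD, n = 4) and 8.93 ± 0.37 (SD, n = 5), and the 95% interval of the difference ran from -1.61 to -0.90. Only 0.467% of all genes had a lower difference. In these tissue samples, fewer cells of a type and less RNA per cell cannot be told apart.

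The promoter of Rarb is shown because it was the only one of the 18 promoters of the 9 genes that held a direct repeat of receptor half-sites. The promoters were 300-base windows, from 250 bases before to 50 after a transcript start, taken from RefSeq on GRCm38.p6. They were searched on both strands for a pair of half-sites in the same direction, where a half-site was AGGTCA, its variant AGTTCA, the variant GGGTCA, or else the variant GGTTCA, with 1, 2 or 5 bases between them (DR1, DR2 and DR5). The Rarb window is chr14:16575427-16575726 on the minus strand, within the annotated gene (chromosome 14, 16430839 to 17082331). Capitals mark the DR5 repeat, which lies at bases -53 to -37 from the start. The promoter of Cyp26a1, which encodes an enzyme that breaks retinoic acid down and is known to be induced by it, is set beside it (chr19:37697558-37697857, plus strand), because it was the only other DR5 among the 82 pathway-list genes with a RefSeq promoter. There the capitals, at bases -32 to -16, read as half-sites on the opposite strand.
Rarb promoter: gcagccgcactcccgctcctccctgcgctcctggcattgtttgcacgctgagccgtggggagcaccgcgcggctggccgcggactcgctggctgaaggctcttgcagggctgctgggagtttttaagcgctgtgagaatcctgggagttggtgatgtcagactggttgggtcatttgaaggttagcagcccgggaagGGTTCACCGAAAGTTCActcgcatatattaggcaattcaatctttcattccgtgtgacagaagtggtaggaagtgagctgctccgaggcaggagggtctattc
Cyp26a1 promoter: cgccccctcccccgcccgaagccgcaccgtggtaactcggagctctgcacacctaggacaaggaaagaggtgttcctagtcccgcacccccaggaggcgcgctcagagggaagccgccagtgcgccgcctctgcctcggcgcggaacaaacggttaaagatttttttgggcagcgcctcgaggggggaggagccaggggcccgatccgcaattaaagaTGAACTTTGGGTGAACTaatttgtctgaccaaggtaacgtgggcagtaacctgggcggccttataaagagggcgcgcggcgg
Of 32851 promoters of this length, 32 held a DR5 (0.097%), and 0.588% held any of the 3 spacings. At least 1 half-site alone was found in 43.7% of them. A match is a description of letters and not of a bound site. In wild-type mice Cyp26a1 measured 4.66 ± 0.24 (SD, n = 4), and R6/2 mice had 4.69 ± 0.12 (SD, n = 5), with a difference of 0.03 and a limma adjusted p of 0.901. This probe set was dim, and whether it lay above background is not known from the deposited values.

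Rxrg encodes RXRγ, the partner receptor that is concentrated in striatum and muscle, and lies on chromosome 1 (167598362 to 167639623, GRCm38.p6). It measured 9.95, 9.93, 10.54 and 10.13 in wild-type mice 46, 47, 49 and 66, and 8.98, 8.95, 8.02, 8.83 and 8.68 in R62_86, R62_95, R62_105, R62_107 and R62_109. Wild-type mouse 49 was the highest, R62_105 was again the lowest, and the groups stood apart. Rxrg fell by 1.45 ± 0.20 (SE) on the log2 scale, to 36.7% of the wild-type level (limma adjusted p = 0.000958), and only 0.242% of all genes had a lower difference. Its means were 10.14 ± 0.28 (SD, n = 4) and 8.69 ± 0.40 (SD, n = 5).

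The 2 RefSeq promoters of Rxrg are shown for contrast with that of Rarb, since this receptor fell too and neither window held a direct repeat with these spacings. They lie on the plus strand at chr1:167598112-167598411 and chr1:167618015-167618314. Capitals mark single half-sites on either strand, 1 in the upstream and 2 in the downstream window.
Rxrg promoter upstream: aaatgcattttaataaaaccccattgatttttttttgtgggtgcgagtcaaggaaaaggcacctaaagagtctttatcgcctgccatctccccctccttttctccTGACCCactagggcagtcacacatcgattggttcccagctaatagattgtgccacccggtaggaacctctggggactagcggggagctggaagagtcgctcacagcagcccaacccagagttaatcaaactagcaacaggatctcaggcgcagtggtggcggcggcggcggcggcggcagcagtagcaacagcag
Rxrg promoter downstream: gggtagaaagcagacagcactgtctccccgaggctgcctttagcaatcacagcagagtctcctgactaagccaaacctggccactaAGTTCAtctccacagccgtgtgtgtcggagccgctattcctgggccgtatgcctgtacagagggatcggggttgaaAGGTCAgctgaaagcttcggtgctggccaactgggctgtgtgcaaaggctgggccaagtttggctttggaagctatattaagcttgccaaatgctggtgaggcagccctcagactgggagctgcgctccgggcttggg
The absence of a match says only that these letters are not in these windows.

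Rarg encodes RARγ, the receptor best known from skin and cartilage, and lies on chromosome 15 (102234938 to 102257522, GRCm38.p6). Its main probe set measured 7.01, 7.10, 6.999 and 6.94 in wild-type mice 46, 47, 49 and 66, and 6.51, 6.79, 6.63, 6.66 and 6.67 in R62_86, R62_95, R62_105, R62_107 and R62_109. Here the spread within each group was small, and R62_86 rather than R62_105 was the lowest. Rarg fell by 0.36 ± 0.07 (SE), to 78.1% of the wild-type level (limma adjusted p = 0.00568). Its dimmer probe set gave a fall of 0.50 ± 0.12 (SE; limma adjusted p = 0.0262 over all probe sets), so both probe sets passed in the same direction. The dimmer one had means of 5.82 in wild-type and 5.32 in R6/2 mice, and whether it lay above background is not known. The main one did not pass with the cortex marker score, described further on, as a covariate (-0.37, adjusted p = 0.126), or without 3 mice rich in choroid plexus transcripts (-0.35, adjusted p = 0.0858).

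Rara encodes RARα, the RAR found in most tissues, and lies on chromosome 11 (98927800 to 98974942, GRCm38.p6). Its difference was 0.01 ± 0.07 (SE), with a 95% interval from -0.16 to 0.17 and a limma adjusted p of 0.967, and the sign turned to -0.01 when arrays were centred on their median and to -0.15 when they were centred on housekeeping genes. Relative to the median of all genes, which that centring also lowers, it was 0.02 with and without housekeeping centring. Wild-type mice measured 4.79, 4.88, 5.09 and 4.73. In R62_86, R62_95, R62_105 and R62_109 the value was 4.88, identical to the last digit among them and with wild-type mouse 47, and R62_107 measured 4.88 as well. Among all 18193 genes, 249 had at least as many arrays with 1 identical value. Such a repeated value at a low level gives little room to see a difference, so the interval above describes these values and not how closely Rara transcripts were measured.

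Rxra encodes RXRα, the RXR with the widest known expression, and lies on chromosome 2 (27676445 to 27763319, GRCm38.p6). Its 3 probe sets gave differences of -0.14 ± 0.12, -0.04 ± 0.10 and -0.04 ± 0.05 (SE), none of which passed the test. The main one had a 95% interval from -0.40 to 0.12 and a limma adjusted p of 0.458, and it measured 6.67 to 7.12 in wild-type and 6.37 to 6.91 in R6/2 mice. Without wild-type mouse 46, the highest, the difference was -0.05, without R62_95, the lowest, it was -0.06, and with the cortex marker score as a covariate it was -0.30, none past the threshold.

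Rxrb encodes RXRβ, which is also widely expressed, and lies on chromosome 17 (34031812 to 34038403, GRCm38.p6). It measured 9.24, 9.33, 9.55 and 9.52 in wild-type mice 46, 47, 49 and 66, and 9.09, 9.51, 9.05, 9.02 and 9.06 in R62_86, R62_95, R62_105, R62_107 and R62_109. R62_95 lay within the wild-type range, and the other 4 R6/2 mice lay below it. The difference was -0.26 ± 0.11 (SE), with a limma adjusted p of 0.131. It passed without R62_95 (-0.36, adjusted p = 0.0152) and when arrays were centred on housekeeping genes (-0.42, adjusted p = 0.0477), whereas with the cortex marker score as a covariate it was -0.07 (adjusted p = 0.874). With housekeeping centring the median over all genes was -0.17 instead of -0.02, and relative to this median the difference of Rxrb was -0.25 under both scalings.

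**Figure D2:**
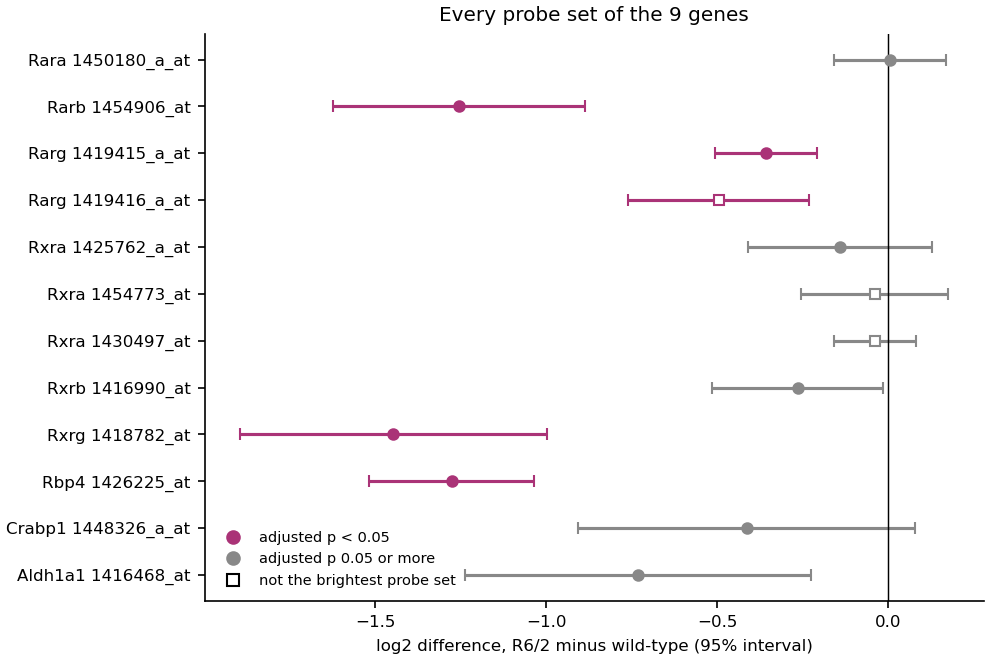
Log2 difference (R6/2 minus wild-type) of each of the 12 probe sets of the 9 genes, with the 95% interval from limma, coloured by the adjusted p over all probe sets; open squares are probe sets other than the brightest. The probe sets of Rarb, Rxrg and Rbp4 lie below -1, both of Rarg lie below 0 with intervals clear of it, and all 3 of Rxra have intervals that include 0.

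Because related receptors were measured on the same arrays, the inequality of their changes was tested directly. Only Rarb and Rxrg, the receptors with the largest falls, were each set against the others of their family. The contrasts are thus not separate evidence for those falls. For each mouse, the log2 value of one receptor was subtracted from that of another, and the genotypes were compared by a two-sided exact permutation test, with 126 possible splits of the mice. Rarb changed relative to Rarg by -0.90 (exact p = 0.0159). Relative to Rara it changed by -1.26 (exact p = 0.00794), a contrast that follows Rarb nearly alone given the repeated value of Rara. Rxrg changed by -1.31 relative to Rxra (exact p = 0.0159) and by -1.18 relative to Rxrb (exact p = 0.00794). Adjusted over the 4 contrasts, each exact p was 0.0159, and the smallest p this design allows is 0.00794. In each contrast all 5 R6/2 mice lay below the wild-type range. Rxrg minus Rxrb, for example, lay between 0.60 and 0.99 in wild-type mice and between -1.03 and -0.11 in R6/2 mice. These ratios show unequal change of array signal and say nothing of which receptor had more transcripts. In wild-type mice Rarg and Rxra (means 7.01 and 6.85) were dimmer than Rarb and Rxrg (10.19 and 10.14). Whether signal followed transcript number alike at these levels was not tested.

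**Figure D3:**
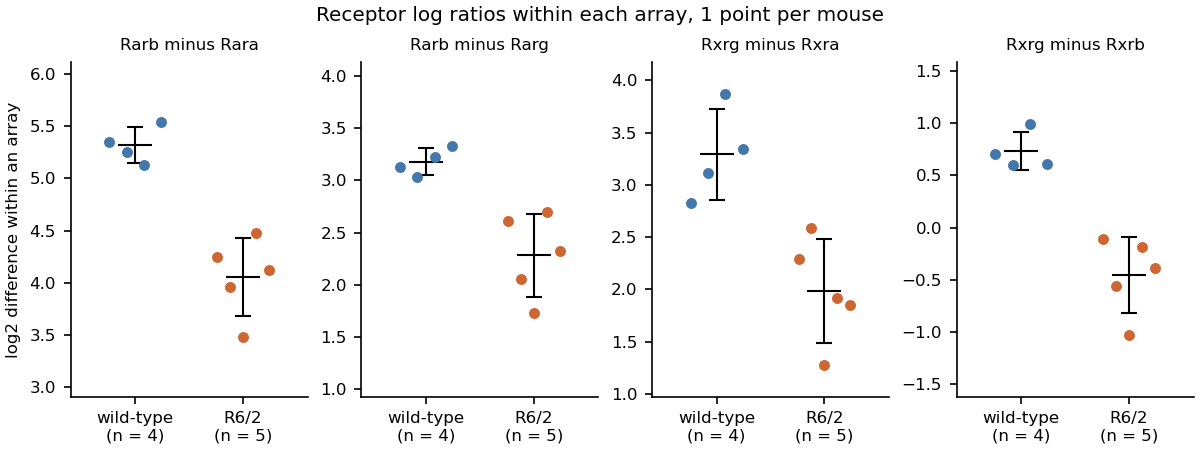
Difference in log2 value between 2 receptors on the same array, 1 point per mouse, for the 4 contrasts and both genotypes, with the group mean and SD. In all 4 panels the 5 R6/2 mice lie below the 4 wild-type mice.

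Rbp4 encodes the retinol carrier of blood plasma, made mainly by the liver and fat, and lies on chromosome 19 (38116620 to 38125321, GRCm38.p6). Its transcripts were measured here in brain tissue. In wild-type mice 46, 47, 49 and 66 the value was 8.86, 8.58, 8.35 and 8.76, and in R62_86, R62_95, R62_105, R62_107 and R62_109 it was 7.51, 7.48, 7.24, 7.32 and 7.25. The R6/2 values were all lower, and they lay closer together than the wild-type ones. Rbp4 fell by 1.28 ± 0.11 (SE), to 41.3% of the wild-type level (limma adjusted p = 0.000111), and its adjusted p was the smallest of the 9 genes. The means were 8.64 ± 0.22 (SD, n = 4) and 7.36 ± 0.13 (SD, n = 5).

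Transthyretin, encoded by Ttr, binds the retinol carrier in plasma and is made in the brain by the choroid plexus, the tissue that secretes cerebrospinal fluid. Ttr measured 12.55, 14.40, 12.35 and 14.50 in wild-type mice 46, 47, 49 and 66, and 10.73, 13.19, 11.64, 14.13 and 13.25 in R62_86, R62_95, R62_105, R62_107 and R62_109. The groups overlapped, and the difference of -0.86 ± 0.70 (SE) did not pass (limma adjusted p = 0.438). Wild-type mice 47 and 66 and R62_107, the highest for Ttr, also had the highest mean log2 value over 8 choroid plexus markers (7.52, 7.64 and 5.95, against 4.58 to 5.10 in the other 6 mice). Of these 8 markers limma called 0, with 1 at an unadjusted p under 0.05 and 0 called without variance moderation. Their median difference was still -1.25, and the score differed by -1.14. It ranged from 4.83 to 7.64 among wild-type mice alone, so the count of 0 does not show equal choroid plexus content. Rbp4 did not follow the order of the mice in this score. It fell by 1.26 with the choroid plexus score as a covariate (adjusted p = 0.00101) and fell by 1.23 without those 3 mice (adjusted p = 0.0135).

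Crabp1 encodes a protein that binds retinoic acid in the cytoplasm, and lies on chromosome 9 (54764748 to 54773110, GRCm38.p6). It measured 5.68, 5.66, 6.41 and 6.14 in wild-type mice, and 5.78, 5.95, 5.28, 5.78 and 4.99 in R62_86, R62_95, R62_105, R62_107 and R62_109. These values were low, and whether they lay above background is not known. The groups overlapped, and only R62_105 and R62_109 lay below all wild-type mice. The difference was -0.41 ± 0.22 (SE), with a 95% interval from -0.89 to 0.06 and a limma adjusted p of 0.221, and it turned to 0.17 with the cortex marker score as a covariate.

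Aldh1a1 encodes a retinaldehyde dehydrogenase that makes retinoic acid and is also known as a marker of a group of midbrain dopamine neurons. The gene lies on chromosome 19 (20492583 to 20643463, GRCm38.p6). In wild-type mice 46, 47, 49 and 66 it measured 9.53, 8.88, 10.03 and 8.81, and in R62_86, R62_95, R62_105, R62_107 and R62_109 it measured 8.80, 8.33, 8.63, 8.47 and 8.66. Wild-type mice 46 and 49 were high, 47 and 66 lay just above the R6/2 range, and the lowest wild-type and the highest R6/2 value were 0.0057 apart. Aldh1a1 fell by 0.73 ± 0.22 (SE), to 60.2% of the wild-type level (limma adjusted p = 0.0453). The call was lost in 13 of 22 alternatives, with adjusted p-values from 0.00175 to 0.608. The low wild-type mice 47 and 66 were those rich in choroid plexus transcripts. With the choroid plexus score as a covariate Aldh1a1 fell by 1.10 (adjusted p = 0.00175), and without these mice and R62_107 it fell by 1.17 (adjusted p = 0.0183). Of 6 markers of midbrain dopamine neurons limma called 0, with 2 at an unadjusted p under 0.05 and 0 called without variance moderation. Their mean lay between 4.58 and 4.79 in wild-type and between 4.45 and 4.89 in R6/2 mice. This mean holds opposite differences, such as -0.40 for Th and 0.40 for Ddc. All 6 were dim, with means over all mice from 2.94 for En1 to 5.77 for Ddc. The list could therefore hardly show a fall, and no conclusion about Aldh1a1 is drawn from it.

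Other genes of the pathway were described from 7 lists, of which 93 genes were measured. Of these, 18 passed the test, 7 higher and 11 lower in R6/2 mice, or 19.4% beside 16.9% of all genes. Without R62_109 the count was 10, and that of all genes went from 3066 to 2207. A share this near to that of all genes is not a result about the pathway, and the genes below are given for their own values.

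In retinoic acid synthesis and retinol metabolism, 3 of 21 genes passed, 1 higher and 2 lower, with a list median of -0.06. Dhrs3, which reduces retinaldehyde back to retinol, measured 7.004, 7.27, 7.91 and 7.92 in wild-type mice and 6.57, 6.58, 6.05, 6.55 and 6.59 in R62_86, R62_95, R62_105, R62_107 and R62_109. Every R6/2 mouse was lower, and R62_105 stood below the rest. Dhrs3 fell by 1.05 ± 0.20 (SE; limma adjusted p = 0.00501), and with the cortex score as a covariate its difference was -0.50 (adjusted p = 0.244). Dgat1, which can esterify retinol and makes triglycerides, rose by 0.51 ± 0.10 (SE; adjusted p = 0.00748), a call lost in 4 of 22 alternatives, with differences from 0.36 to 0.61. Adh7, a retinol-oxidising alcohol dehydrogenase, fell by 0.30 ± 0.08 (SE; adjusted p = 0.034), a call lost in 13 of 21 alternatives. In retinoic acid breakdown, Cyp26b1, a cytochrome P450 that clears retinoic acid, rose by 0.22 ± 0.06 (SE; adjusted p = 0.0401), a call lost in 16 of 21 alternatives, and Cyp26a1 did not pass. Adh7 and Cyp26b1 were dim, with wild-type means of 5.62 and 5.30, and whether they lay above background is not known.

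Among 9 other genes of retinoid transport and binding, 2 fell and none rose, with a median of -0.17. Crabp2, the relative of Crabp1 known for carrying retinoic acid to the receptors, fell by 0.92 ± 0.18 (SE; limma adjusted p = 0.00621). Its values were 5.22, 5.76, 6.00 and 6.06 in wild-type mice and 4.53 to 5.22 in R6/2 mice. Whether values this low lay above background is not known. Fabp5, a fatty acid binding protein that can carry retinoic acid, fell by 0.32 ± 0.07 (SE; adjusted p = 0.0104). Whether Crabp1 and Crabp2 differed by unequal amounts was not tested.

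Of 14 receptor coregulators, 3 rose and 1 fell, with a median of 0.07. Crebbp and Ep300, the histone acetyltransferases that receptors recruit to active genes, rose by 0.40 ± 0.09 (SE; limma adjusted p = 0.0117) and 0.32 ± 0.07 (SE; adjusted p = 0.0112). Both calls were lost with age as a covariate, with the cortex score as a covariate (0.38 for Crebbp and 0.33 for Ep300), without the 3 mice rich in choroid plexus transcripts (0.49 and 0.35) and with housekeeping centring (0.25 and 0.17), which lowers all genes alike. Ncoa1, a coactivator, rose by 0.22 (adjusted p = 0.0422) and Tbl1x, a part of the corepressor complex, fell by 0.23 (adjusted p = 0.037), and these calls were lost in 17 and 13 of 22 alternatives.

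Of 12 nuclear receptors that pair with RXR, limma called 0, with 2 at an unadjusted p under 0.05 and 0 called without variance moderation. Nr4a1, an activity-induced orphan receptor, came nearest, at -0.97 ± 0.31 (SE; adjusted p = 0.0548), and it passed in 5 of 22 alternatives, with differences from -1.18 to -0.40 over all 22. With housekeeping centring 3 of the 12 passed, beside 4284 of all 18193 genes, 3788 of them lower. That count is thus not a result about these receptors. Of 21 other nuclear receptors, 2 rose and 2 fell, with a median of -0.04. Nr2f6, an orphan receptor, fell by 0.52 ± 0.09 (SE; adjusted p = 0.00381). Esr1, an oestrogen receptor, rose by 0.66 ± 0.15 (SE; adjusted p = 0.0134), a call lost in 5 of 21 alternatives, with differences from 0.27 to 0.78. Its probe set was dim, with means of 4.35 in wild-type and 5.01 in R6/2 mice, and whether it lay above background is not known. Nr2f1, an orphan receptor known from cortex development, rose by 0.87 ± 0.24 (SE; adjusted p = 0.0292), a call lost in 10 of 22 alternatives. Esrra fell by 0.21 (adjusted p = 0.0431), and its difference was 0.00 when all its probe sets were averaged.

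Of 20 genes known to respond to retinoic acid, 1 rose and 6 fell, with a median of -0.17. Drd2, the D2 dopamine receptor of indirect-pathway spiny neurons, measured 9.96, 9.97, 10.38 and 10.66 in wild-type mice and 8.79, 9.22, 7.97, 8.98 and 8.38 in R62_86, R62_95, R62_105, R62_107 and R62_109. The groups stood apart, with R62_105 lowest. Drd2 fell by 1.58 ± 0.24 (SE; limma adjusted p = 0.00186). Rarres2, which encodes chemerin, fell by 0.57 ± 0.12 (SE; adjusted p = 0.0113). The list also holds Dhrs3, Crabp2, Meis2 and Nrgn, which fell, and Cyp26b1, which rose. Drd2 and Meis2 are also spiny neuron markers, so their fall is not separate from the one described next.

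**Figure D4:**
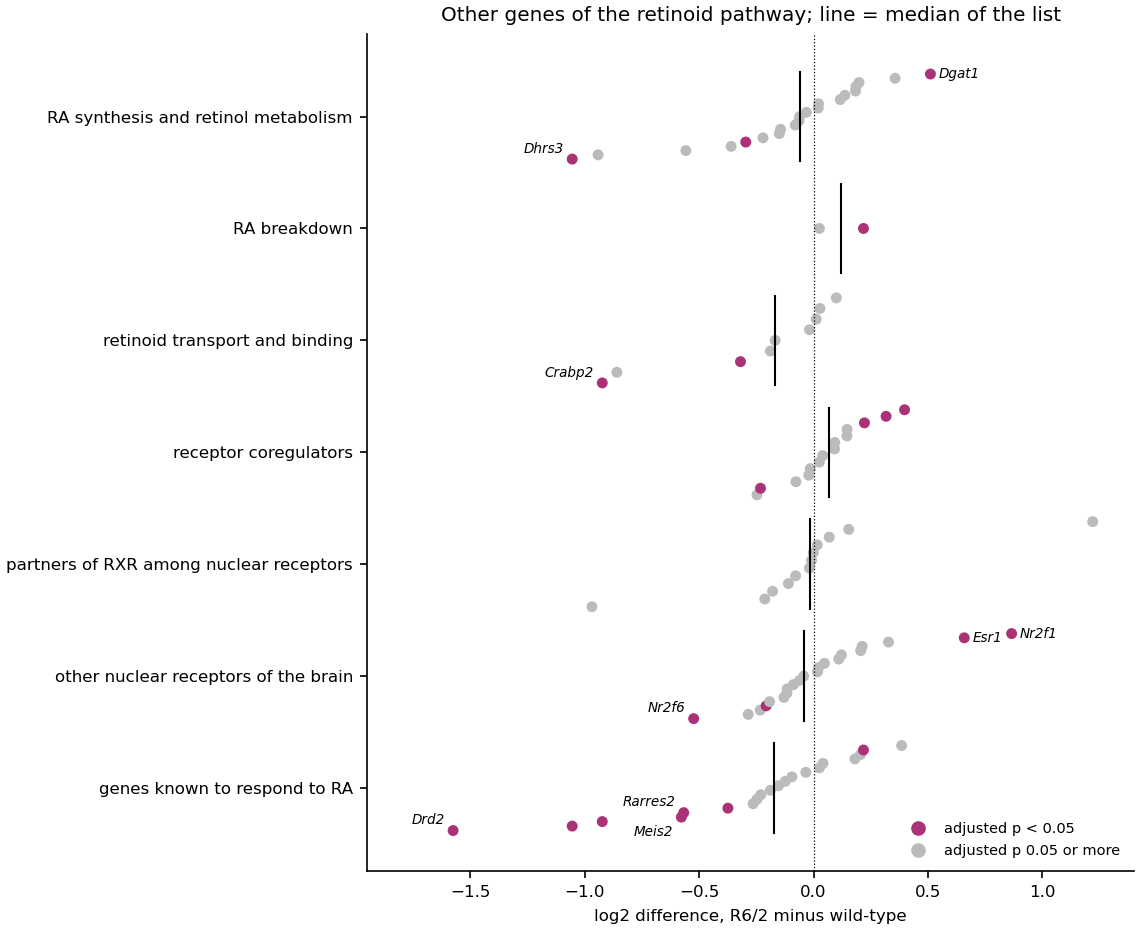
Log2 difference (R6/2 minus wild-type) of each measured gene of the 7 pathway lists (RA, retinoic acid), 1 point per gene, with purple points for an adjusted p under 0.05 and a line at the list's median. Drd2, Dhrs3 and Crabp2 lie lowest among the genes that passed, and the medians of the lists lie between -0.17 and 0.12.

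The labelled tissue was checked with markers. Spiny projection neuron markers were bright, with a mean over 14 genes between 11.33 and 11.64 in wild-type mice. In R6/2 mice this score lay between 9.62 and 10.48, lowest in R62_105, and 13 of the 14 markers fell, with a median difference of -1.46. Markers of cortex projection neurons went the other way: 5 of 10 rose and 1 fell, and their score was 6.58 to 7.62 in wild-type and 7.38 to 8.16 in R6/2 mice, highest in R62_105. Of the other lists, 5 of 10 interneuron, 4 of 8 astrocyte, 3 of 8 microglia and 2 of 7 oligodendrocyte markers fell and none rose. Over all genes 7.57% were called lower and 9.28% higher, and whether any list departed from these shares was not tested. Limma called 0 of 8 meningeal, 0 of 8 endothelial and mural and 0 of 5 thalamic markers, with 0, 1 and 2 at an unadjusted p under 0.05 and 0 called without variance moderation.

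Rarb, Rxrg and Rbp4 were therefore set against the spiny neuron score on the same array, a comparison added after the data were seen. Rarb minus the score differed between genotypes by 0.01 (exact permutation p = 0.913), Rbp4 minus the score by -0.01 (exact p = 0.952) and Rxrg minus the score by -0.18 (exact p = 0.31), so none differed beyond the spread between mice. Adjusted over the 3, the exact p-values were 0.952, 0.952 and 0.93. A p that misses the threshold does not show that these genes and the markers fell by the same amount. The score itself differed by -1.27, and its single markers by amounts from -1.88 for Penk to -0.30 for Tac1. The contrasts therefore depend on which markers the list holds. As deviations from the genotype means, Rarb and Rxrg correlated with the score at r = 0.82 and 0.76 over 9 arrays. Rbp4 did so at only r = 0.37, and these values are a description with no test. Without R62_105, lowest in all 3 genes and in the score, the differences were -1.11 for Rarb, -1.28 for Rxrg and -1.25 for Rbp4, with limma adjusted p-values of 0.000364, 0.000578 and 0.000309.

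**Figure D5:**
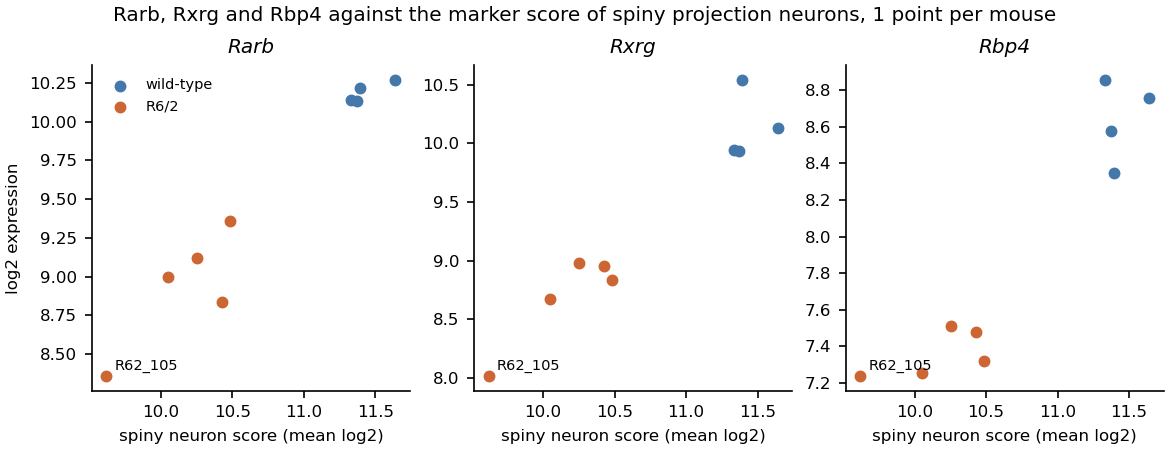
Log2 expression of Rarb, Rxrg and Rbp4 against the mean log2 value of the spiny projection neuron markers, 1 point per mouse, with R62_105 labelled. The 4 wild-type mice lie at upper right and the 5 R6/2 mice at lower left in each panel, with R62_105 lowest in all 3 genes.

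The cortex score moved with genotype as well, and it was entered as a covariate. Rarb then differed by -0.96 (limma adjusted p = 0.0608) and Rxrg by -1.05 (adjusted p = 0.0749), neither past the threshold. Rbp4 fell by 1.32 under this fit (adjusted p = 0.0088), and 299 of all genes passed it. Of the 93 pathway-list genes limma called 0 in this fit, with 14 at an unadjusted p under 0.05. Among those named above, the differences of Crabp2 (-0.56), Drd2 (-0.86), Rarres2 (-0.21), Nr2f1 (0.14) and Esr1 (0.36) were smaller than without the score. Those of Fabp5 (-0.29), Dgat1 (0.46), Crebbp (0.38) and Ep300 (0.33) stayed close to their values without the score. Rarg (-0.37) and Aldh1a1 (-0.93) differed by no less than before. The reason for these unlike shifts was not tested. Age also differed in part between the groups. R62_86, at the wild-type age of 85 days, differed from the wild-type mean by -1.07 for Rarb, -1.16 for Rxrg and -1.12 for Rbp4, which is the value that a fit with age as a covariate gives. In that fit limma called 0 of the 9 genes, with 4 at an unadjusted p under 0.05, and 30 of all genes.

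Over the 9 arrays, the genes whose log2 values ran most like those of Rarb among the 9097 brighter genes were Pde7b (r = 0.994), Rragd (r = 0.992) and Spock3 (r = 0.992). They had differences of -1.003, -0.85 and -1.04. For Rxrg they were Gamt (r = 0.989), Pde8b (r = 0.989) and Tesc (r = 0.988), with differences of -0.75, -0.55 and -1.31. The 9 arrays share the genotype difference, which alone gives genes that differ between groups a high correlation, so these values are a description with no test.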

How the data were processed

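Gene expression in mouse striatum was measured on 9 arrays, 1 per animal, from 4 wild-type and 5 R6/2 mice. The deposited values are log2 expression per probe set, computed with RMA and affy per the submitters' processing notes. RMA forces the arrays to share a distribution of probe intensities before these are summarized per probe set, so the deposited values share it only nearly. Differences are thus relative to the other genes, and a shift in total RNA cannot be seen. Which versions were used, and on which arrays together, is not given in the sources used here. Labelling used an in vitro transcription kit per the labels' protocols. Precision is limited by the number of arrays.

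Of 45101 probe sets, 64 were controls. The platform annotation named 1 gene for 34945 and several for 932, and did not list 9211, which stay unnamed. Gene identifiers of 34741 matched RefSeq (GRCm38.p6). The brightest probe set stood for a gene. Array medians ran from 5.37 to 5.45, and array correlations from 0.979 to 0.995, with at most 3.93% identical values in a pair, so each array counted as 1 replicate.

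Genotypes were compared with limma 3.58.1 in R 4.3.3, with two-sided p-values adjusted after Benjamini and Hochberg over 18193 genes and called under 0.05. Limma was tested on simulated data. Contrasts between receptors used exact permutation tests. Named genes were the 9 members, up to 4 genes with the smallest p among those past the threshold in each list (the smallest p alone if fewer than 2 passed), Ttr, and the 3 genes most like Rarb and Rxrg. Cyp26a1, with its promoter, and Meis2 and Nrgn were named after their values were seen. Members and lists were chosen with earlier results of these data known. Alternatives covered probe set choice, a filter on dim genes, normalization, centring, variance model, covariates and arrays left out. The contrast with the spiny neuron score was added after seeing the data. Figures were drawn with matplotlib 3.10.9.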

Additional observations from a re-analysis of the deposited data

Results flagged for a closer look

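Within each genotype, the highest and the lowest mouse were set against the rest for the 9 genes and the other genes named, 78 groups in all. In 3 of them a single mouse stood apart from the others. Chance flags about 1 in 20 groups, so this count is no more than chance gives. For Rxrb, R62_95 measured 9.51, and the other 4 R6/2 mice lay between 9.02 and 9.09. For Dhrs3, the retinaldehyde reductase, R62_105 measured 6.05 and the others lay between 6.55 and 6.59. For Rara, R62_107 measured 4.88, which differs from the identical value of 4.88 in the other 4 R6/2 mice only in the third decimal.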

How the results depend on the processing

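Over 22 alternatives per gene (21 for Rara and Crabp1), the 9 genes kept direction and side of the threshold 166 times, lost a call 21 times, gained one 2 times and changed sign 7 times; the cause was not tested. With age as a covariate, which rests on R62_86 alone, the differences were -1.07 for Rarb, -1.16 for Rxrg, -1.12 for Rbp4, -0.50 for Rarg and -0.51 for Aldh1a1, and limma called 0 of the 9 genes (4 at an unadjusted p under 0.05), 0 of the pathway-list genes (16 at an unadjusted p under 0.05) and 30 of all genes. With the cortex score they were -0.96 for Rarb, -1.05 for Rxrg, -0.37 for Rarg, -0.93 for Aldh1a1, -0.07 for Rxrb, 0.17 for Crabp1 and 0.36 for Ttr, and limma called 1 of the 9 genes, 0 of the pathway-list genes (14 at an unadjusted p under 0.05) and 299 of all genes. With the choroid plexus score, Rara was -0.0439 and Ttr 0.20, and 11 pathway-list genes and 2024 of all genes passed. Without the 3 mice rich in choroid plexus transcripts, Rara was -0.063 and Rarg -0.35, 4 pathway-list genes and 882 of all genes passed, and the receptor contrasts were -1.29 for Rarb against Rara, -0.998 for Rarb against Rarg, -1.349 for Rxrg against Rxra and -1.37 for Rxrg against Rxrb, where 2 against 4 mice cannot pass (adjusted exact p = 0.0667). Rara was -0.0126 with median centring and -0.15 with housekeeping centring, under which Rxrb passed at -0.42 and all genes split into 496 higher and 3788 lower calls, against 1688 and 1378. Aldh1a1 did not pass with averaged or separate probe sets or without moderation (-0.73 each, the last calling 2006 of all genes), or with array weights (-0.51). Esrra was 0.002 with averaged probe sets. Leaving out 1 mouse at a time gave -0.0413 to 0.0771 for Rara, -0.36 to -0.22 for Rxrb, -0.20 to -0.05 for Rxra, -0.90 to -0.49 for Aldh1a1, 10 to 18 pathway-list genes and 2183 to 2984 of all genes. No paired analysis was made. Animal numbers name single mice and cannot show whether mice of different genotypes were paired, for example by litter.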
